A study of Mus musculus with 2 samples.

Results

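The 8 genes described here encode parts of the phosphoinositide 3-kinase (PI3K), Akt and FoxO pathway: *Pik3r1*, *Pik3cg*, *Pik3ap1*, *Akt1*, *Akt2*, *Mtor*, *Foxo1* and *Foxo3*. They are 8 of the 32285 genes in a single-cell count table of microglia. They were picked by name for their place in this pathway after levels in these libraries had been seen, so their levels by library and by cell state are given as a description. Microglia were sorted as live CD45lo CD11b+ cells from the cortex and hippocampus of PSAPP mice, which carry the APPswe and PS1ΔE9 transgenes and develop amyloid plaques; the promoter driving the transgenes is not given in the sources used here. Mice were gavaged daily for 30 days, from 9 to 10 months of age, with vehicle (VEH) or with lemborexant (LEM, 30 mg/kg/day), an antagonist of both orexin receptors that is used to promote sleep. Cells of 5 mice per treatment were pooled into 1 library each, and all mice in both libraries carried the transgenes. With 1 library per treatment there was no replicate and no test: every interval below is an exact 95% interval that covers counting error only, and a treatment cannot be told apart from its pool of mice or its library.

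Class I PI3K pairs a catalytic subunit with a regulatory subunit and, once recruited to an activated receptor, makes the membrane lipid PIP3. PIP3 brings Akt to the membrane, and active Akt raises mTOR signalling and phosphorylates FoxO transcription factors, which then leave the nucleus. In microglia this route lies downstream of receptors such as CSF1R, P2RY12 and TREM2, and its main control is by phosphorylation, which mRNA counts do not measure.

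The VEH library held 18374 cells with 116229678 counts and the LEM library 24392 cells with 160752298 counts, at medians of 5971 and 6034 counts per cell. The cell names carry no barcodes, so barcodes shared between the libraries could not be counted. The 5 microglial markers (*Ctss*, *C1qa*, *C1qb*, *Cx3cr1*, *P2ry12*) were all detected widely, each in 98.4% or more of the cells of a library, as the label microglia asks. Choroid plexus markers summed to 438 CPM (counts per 1000000 counts of the library or pool) in VEH and 1325 CPM in LEM, and the 11 dissociation and immediate early genes to 10732 and 9319 CPM. Counts of *Xist* and of Y-linked genes marked 5686 female and 9025 male cells in VEH, and 8409 and 11223 in LEM, so both pools held both sexes.

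On GRCm38 with GENCODE M21 gene models, all 8 genes are protein-coding. *Pik3r1* lies at chr13:101680563-101768217 on the minus strand, *Pik3cg* at chr12:32173473-32208659 (minus), *Pik3ap1* at chr19:41272377-41385102 (minus) and *Akt1* at chr12:112653821-112674884 (minus). *Akt2* lies at chr7:27591552-27640826 (plus), *Mtor* at chr4:148448611-148557683 (plus), *Foxo1* at chr3:52268336-52353221 (plus) and *Foxo3* at chr10:42181841-42276755 (minus). On the same strand 2 other gene models, both named *Gm36638*, overlap *Pik3r1*, 2 overlap *Mtor* and 1 each *Akt1* and *Foxo1*. Whether reads from these entered the member's counts was not tested. The 250 bases upstream of the outermost RefSeq start (GRCm38.p6) are shown for 3 of the 8 genes. These are *Pik3r1*, the gene that was lower in LEM, *Pik3ap1*, the gene that was higher in interferon-gated cells, and *Akt1*, the gene whose window matched the FoxO core motif. Each is written 5′ to 3′ on the gene's own strand, with matches to the FoxO core (GTAAACA) or the GC box (GGGCGG), on either strand, in capitals.
Pik3r1, chr13:101768218-101768467, minus: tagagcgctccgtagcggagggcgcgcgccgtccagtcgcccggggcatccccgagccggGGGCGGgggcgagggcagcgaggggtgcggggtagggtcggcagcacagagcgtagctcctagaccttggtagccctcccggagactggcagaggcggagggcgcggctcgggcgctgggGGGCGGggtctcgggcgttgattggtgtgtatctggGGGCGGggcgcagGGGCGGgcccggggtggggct
Pik3ap1, chr19:41385103-41385352, minus: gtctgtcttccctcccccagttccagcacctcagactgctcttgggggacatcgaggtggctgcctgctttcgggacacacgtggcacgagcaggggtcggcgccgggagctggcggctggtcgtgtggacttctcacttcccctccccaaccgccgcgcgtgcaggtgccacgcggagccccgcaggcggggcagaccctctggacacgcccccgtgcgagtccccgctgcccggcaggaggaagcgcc
Akt1, chr12:112674885-112675134, minus: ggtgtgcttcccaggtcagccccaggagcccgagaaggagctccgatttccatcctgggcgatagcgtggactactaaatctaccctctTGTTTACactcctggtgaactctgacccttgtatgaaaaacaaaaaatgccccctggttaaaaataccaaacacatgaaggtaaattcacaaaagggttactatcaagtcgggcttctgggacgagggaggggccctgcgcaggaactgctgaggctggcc

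The FoxO core was matched in 1 of the 8 windows, in *Akt1* from 161 bases before the start, against 3.17% of 32851 RefSeq windows of the same length. The GC box was matched in 5 of the 8 genes, 5 times in *Foxo3*, 4 times in *Pik3r1*, 2 times each in *Mtor* and *Foxo1* and 1 time in *Akt2*, against 32.7% of all windows. The interferon-stimulated response element, searched as GAAANNGAAA on both strands, was matched in none of the 8, against 2.98% of all windows. Each gene was searched at its outermost start only, although *Pik3r1*, *Pik3cg* and *Akt1* have 2 starts and *Akt2* has 4. The set of all windows holds every start of a gene. Such a match is a description of letters and not of a bound site.

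The question between the libraries was whether microglia from LEM-treated mice differed from those of VEH-treated mice. Of the 8 genes, *Pik3r1* was lower in LEM, and the other 7 differed by less than 0.25 on the log2 scale, the fold set for a library difference. That is 1 of 8 lower and 0 of 8 higher, against 4.37% of 11910 genes counted in at least 1% of cells lower and 6.16% higher by the same fold. The median of the 8 log2 ratios was −0.05 and that of all genes tested 0.01.

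*Pik3r1* encodes the main regulatory subunit of class I PI3K, which stabilises the catalytic subunit and holds it inactive until a receptor recruits it. Its level was 256.9 CPM (254.0 to 259.9) in VEH and 199.4 CPM (197.2 to 201.6) in LEM. The log2 ratio was −0.37 with an interval of −0.39 to −0.34. In female cells it was 269.6 CPM in VEH and 213.3 CPM in LEM, and male cells stood at 246.0 to 254.1 CPM in VEH and at 191.0 CPM in LEM. Both sexes were thus lower in LEM, the female cells by −0.34 (−0.38 to −0.30) and the male cells by −0.39 (−0.42 to −0.35), and the libraries did not overlap in either sex. Of all genes tested, 3.80% were lower by the fold and lower in both sexes. The difference between libraries exceeded that between female and male cells within a library, which was 0.11 in VEH and 0.16 in LEM. It was −0.36 without the choroid plexus and border-associated macrophage gates, and the part of the dissociation genes, which were also lower in LEM, was not tested.

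*Pik3cg*, the catalytic subunit that G protein βγ subunits activate, was at 139.7 CPM (137.5 to 141.8) in VEH and 149.2 CPM (147.3 to 151.1) in LEM. Its log2 ratio of 0.09 was 0.08 in female and 0.10 in male cells, which is above counting error but below the fold. *Pik3ap1* encodes BCAP, an adaptor that recruits the regulatory subunit to the membrane below Toll-like and antigen receptors. It was level between libraries, at 204.6 CPM (202.0 to 207.2) in VEH and 205.1 CPM (202.9 to 207.4) in LEM, and its log2 ratio lay between −0.02 and 0.03.

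The Akt genes encode the serine/threonine kinases that PIP3 recruits. *Akt1* was at 100.7 CPM in VEH and 98.6 CPM in LEM, a log2 ratio of −0.03 (−0.07 to 0.00). *Akt2*, the isoform best known for insulin responses, was at 22.7 CPM and 21.6 CPM, a log2 ratio of −0.07 (−0.14 to 0.00). For both genes the interval reached 0, so no difference was detectable over all cells at this depth. Among female cells alone both lay slightly lower in LEM, *Akt1* by −0.07 (−0.13 to −0.01) and *Akt2* by −0.16 (−0.29 to −0.03). *Mtor*, the kinase at the core of both mTOR complexes, was at 33.8 CPM (32.8 to 34.9) in VEH and 30.5 CPM (29.7 to 31.4) in LEM. The ratio of −0.15 came mostly from female cells, where it was −0.30 (−0.40 to −0.20). Among male cells it was −0.07, and the interval of −0.16 to 0.02 held 0. Female cells of the VEH library stood apart at 38.8 CPM (36.8 to 40.9), while the other 3 groups lay between 29.8 and 31.5 CPM. The female to male difference within VEH, 0.31, was larger than the difference between libraries, and without female cells the *Mtor* ratio did not pass counting error.

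*Foxo1* and *Foxo3* encode the FoxO factors best known for stress resistance, metabolism and cell quiescence. *Foxo1* was at 37.5 CPM (36.4 to 38.7) in VEH and 33.7 CPM (32.8 to 34.6) in LEM, for a ratio of −0.16 on the log2 scale (−0.21 to −0.10). It was lower in LEM in female cells by −0.20 and in male cells by −0.09, both with intervals below 0. *Foxo3* was at 87.8 CPM and 88.6 CPM, a log2 ratio of 0.01 (−0.02 to 0.05), and its ratio was −0.04 in female and 0.09 (0.04 to 0.15) in male cells.

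**Figure D1:**
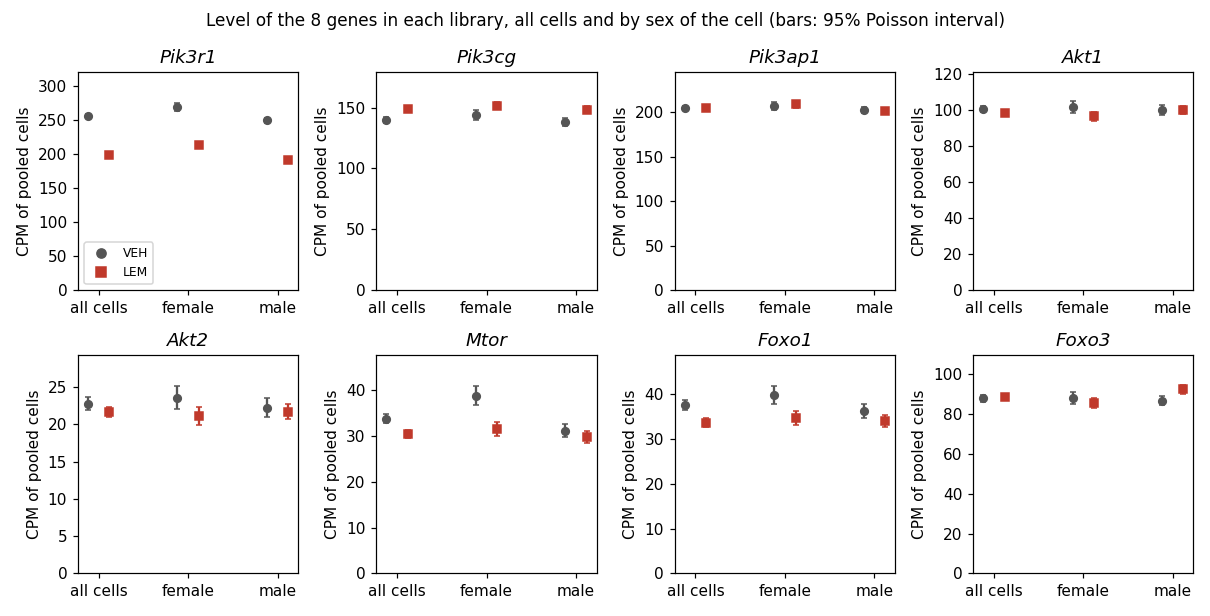
Level of the 8 genes in CPM (y axis, from 0) in the VEH (grey circles) and LEM (red squares) libraries, for all cells, female cells and male cells, with 95% Poisson intervals. *Pik3r1* lies near 257 CPM in VEH and 199 CPM in LEM with the same order in both sexes, while VEH and LEM lie close together for the other 7 genes apart from *Mtor* in female cells.

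The share of cells with a count was lower in LEM for *Pik3r1*, while for other genes it did not always follow the CPM. *Pik3r1* was counted in 66.6% of VEH cells (65.9 to 67.2, Clopper-Pearson) and 62.7% of LEM cells (62.1 to 63.3), and in 37.2% and 31.7% after each cell was thinned to 2000 counts. In the same order *Pik3cg* was counted in 52.2% and 55.9% of cells (24.1% and 25.5% after thinning), *Pik3ap1* in 62.9% and 64.6% (32.8% and 32.2%), and *Akt1* in 43.9% and 44.9% (18.3% and 17.2%). *Foxo3* was counted in 37.3% and 39.5% (16.3% and 16.4% after thinning), *Foxo1* in 19.3% and 18.5% (7.32% and 6.74%), *Mtor* in 16.8% and 16.4% (after thinning 5.80% in LEM and an interval of 6.04% to 6.78% in VEH), and *Akt2* in 12.8% and 12.9% (4.55% and 4.30%). At equal depth the intervals of *Pik3r1* and *Pik3cg* were apart between libraries and those of the other members overlapped. The higher LEM shares of *Pik3ap1* and *Akt1* were thus not seen there. How many of all genes had intervals apart was not computed, so this gives no result about the members as a set. Barcodes that held choroid plexus epithelial markers (185 cells, median 8708 counts) also held microglial transcripts, with *P2ry12* counted in 67.6% and *C1qa* in 71.4% of them. They therefore do not measure how far these genes are counted outside microglia. There *Pik3r1* was counted in 53.5% of cells, *Pik3cg* in 44.9% and *Pik3ap1* in 46.5%, or 20.5%, 15.9% and 12.5% after thinning, each below the thinned share in both libraries. *Akt1* was counted in 47.0% of these barcodes (14.2% after thinning), *Foxo3* in 34.1% (10.2%), *Mtor* in 19.5% (4.55%) and *Foxo1* in 17.8% (3.98%). *Akt2* went the other way, at 29.2%, or 6.25% (3.16 to 10.9) after thinning, against 4.55% and 4.30% in the libraries. The microglial genes *P2ry12*, *C1qa* and *Csf1r* stood there at 48.0% to 54.0% of their homeostatic CPM, and *Pik3cg* and *Pik3ap1* at 59.0% and 54.8%. Free RNA, a microglial partner in the droplet and transcription in the epithelium cannot be told apart there.

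Cell states were set by gates on raw marker counts, and no member was a marker of a gate. A cell was homeostatic with *P2ry12* and no marker of disease-associated microglia (DAM), intermediate with 1 or 2 DAM markers, and DAM with at least 3 of *Cst7*, *Lpl*, *Itgax*, *Spp1* and *Gpnmb*. DAM are the microglia that gather at amyloid plaques and turn on lipid handling and lysosomal genes. The gates for MHC class II, interferon-stimulated and proliferation genes asked for at least 3 markers, and that for chemokines for at least 5 counts of each of *Ccl3* and *Ccl4*. Homeostatic cells made up 74.8% of VEH and 70.0% of LEM cells, intermediate cells 11.5% and 15.3%, and DAM cells 2.46% and 2.35% (452 and 573 cells). The gates differed in depth, with a median of 5683 counts in homeostatic, 7523 in interferon, 9976 in proliferating and 11501 in DAM cells.

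Within states, the lower *Pik3r1* level of LEM was seen in 8 of 8 states with at least 50 cells in each library, each with an interval below 0. The states are parts of the same libraries and no replicates, and the 8 include the cells left over by all gates. Such counts of states were not made for all genes. The log2 ratio was −0.37 (−0.39 to −0.34) in homeostatic, −0.22 in intermediate, −0.33 in MHC class II, −0.50 in chemokine, −0.35 in interferon and −0.37 in proliferating cells. It was smallest in DAM cells, at −0.17 (−0.32 to −0.02), and largest in the cells left over by all gates, at −1.16 (−1.53 to −0.79). With each state given the same weight in both libraries the ratio over all cells was −0.36. *Foxo1* and *Mtor* were each lower in LEM in 7 of 8 states, with intervals below 0 in 2 of them. For *Mtor* the largest of these was in DAM cells, 31.7 CPM in VEH and 20.2 CPM in LEM. That ratio was −0.65 (−0.99 to −0.31) and rested on 161 and 137 counts. *Pik3cg* was higher in LEM in 4 of 8 states, with intervals above 0 in homeostatic, intermediate and chemokine cells.

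Between states, 5 of the 8 genes were lower on the CPM scale in DAM cells than in homeostatic cells. *Pik3r1* stood at 273.4 CPM in homeostatic and 135.6 CPM in DAM cells of VEH, and at 212.2 and 120.7 CPM in LEM. The mean log2 ratio of the 2 libraries was −0.91, at −1.01 (−1.12 to −0.90) in VEH and −0.81 (−0.92 to −0.71) in LEM. *Pik3ap1* stood at 213.4 CPM against 101.1 to 119.5 CPM in VEH and at 212.7 and 118.9 CPM in LEM, a mean log2 ratio of −0.90. *Foxo1* stood at 40.9 and 22.0 CPM in VEH and at 36.6 and 18.2 CPM in LEM, a mean log2 ratio of −0.95. In these genes, the 3 lowest of the 8, the homeostatic and DAM intervals lay apart in both libraries. The same held for *Pik3cg* and *Foxo3*. How many of all genes had intervals apart was not computed.

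*Pik3cg* fell by less, from 145.2 to 91.5 CPM in VEH and from 156.7 to 101.9 CPM in LEM (mean log2 ratio −0.64), as did *Foxo3*, from 92.9 to 64.1 CPM and from 94.9 to 57.5 CPM (−0.63). The Akt genes changed least, with *Akt1* at 102.9 and 93.1 CPM in VEH and at 101.1 and 84.0 CPM in LEM (−0.21). *Akt2* was at 23.1 and 19.1 CPM in VEH and at 22.0 and 19.3 CPM in LEM (−0.23), with both intervals reaching 0. For *Mtor* the value was −0.12 (−0.36 to 0.11) in VEH and −0.64 (−0.89 to −0.39) in LEM, so its mean of −0.38 rests on LEM. The count of 5 of 8 lower by at least 0.5 stands against 26.9% of 7526 genes counted in at least 10% of cells, and 0 of 8 higher against 6.59%. The median log2 ratio was −0.63 over the 8 genes and −0.30 over all genes tested, so relative to that shift 3 of the 8 (*Pik3r1*, *Pik3ap1* and *Foxo1*) stayed past the fold, beside 8.90% of all genes tested. *Malat1*, a transcript kept in the nucleus, was also lower in DAM cells, at 4244 CPM against 8825 CPM in homeostatic cells of both libraries together (48.1%), and its part in these values was not tested.

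Over all cells the difference lay in the share of counts: DAM cells had larger totals, and none of the 5 genes had fewer counts per cell by the fold. A DAM cell held on average 1.52 counts of *Pik3r1* in VEH and 1.43 in LEM, against 1.59 and 1.27 in a homeostatic cell. *Foxo1* was at 0.25 and 0.21 counts per DAM cell against 0.24 and 0.22, and *Pik3ap1* at 1.24 and 1.40 against 1.24 and 1.27. *Akt1*, by contrast, was at 1.05 and 0.99 counts per DAM cell against 0.60 and 0.61, a mean log2 ratio of 0.76. On this scale 0 of 8 genes were lower and 3 of 8 (*Akt1*, *Akt2* and *Mtor*) were higher by the fold, and of all genes tested 1.01% were lower and 69.7% higher. In cells of similar depth, where a lower share is also a lower count per cell, the 5 genes remained lower in DAM cells. Among cells of 8000 to 12000 counts *Pik3r1* was at 119.6 CPM in 323 DAM and 227.9 CPM in 3964 homeostatic cells, *Pik3ap1* at 107.9 and 204.4 CPM, and *Foxo1* at 17.3 and 35.8 CPM. *Pik3cg* was at 90.9 and 149.0 CPM and *Foxo3* at 61.9 and 90.1 CPM, while the intervals of *Akt1*, *Akt2* and *Mtor* overlapped. *Malat1* was lower there too, at 4321 and 8185 CPM. The share of all genes lower in this depth range was not computed.

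**Figure D2:**
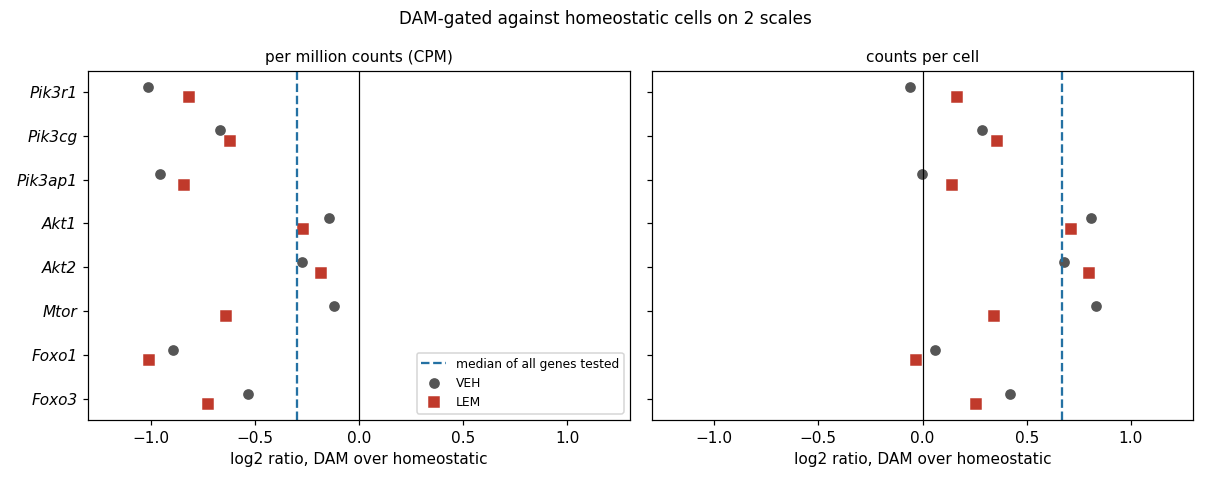
Log2 ratio of DAM-gated to homeostatic cells (x axis) for the 8 genes in VEH (grey circles) and LEM (red squares), in CPM (left) and in counts per cell (right), with the median of all 7526 genes tested as a dashed line. In CPM *Pik3r1*, *Pik3cg*, *Pik3ap1*, *Foxo1* and *Foxo3* lie left of the dashed line in both libraries, and per cell *Pik3r1*, *Pik3ap1* and *Foxo1* lie near 0 while *Akt1* and *Akt2* lie near the median of all genes.

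On the CPM scale the decline was graded with the number of DAM markers counted in a cell. In VEH *Pik3r1* was at 274.3, 231.6, 187.3, 150.4 and 114.5 CPM in cells with 0, 1, 2, 3 and 4 markers, and in LEM at 210.6, 196.1, 156.0, 135.8 and 101.3 CPM. The LEM value was below the VEH value at each of these steps, with intervals that overlapped at 3 and 4 markers. *Pik3ap1* went from 211.5 CPM at 0 markers to 100.7 CPM at 4 markers in VEH and from 211.0 to 98.3 CPM in LEM. *Foxo1* went from 40.5 to 21.9 CPM in VEH and from 36.0 to 16.5 CPM in LEM, *Foxo3* from 92.7 to 56.5 and from 94.5 to 56.6 CPM, and *Pik3cg* from 144.3 to 89.8 and from 155.8 to 93.6 CPM. *Akt1* moved less, from 102.5 to 97.4 CPM in VEH and from 100.1 to 80.4 CPM in LEM. *Mtor* went from 31.4 to 19.2 CPM in LEM, while in VEH its values of 34.2 and 29.0 CPM had overlapping intervals. The median depth rose along the same steps, from 5677 to 12739 counts in VEH and from 5726 to 13218.5 in LEM, and 5 markers were found in only 2 VEH and 4 LEM cells. In counts per cell *Pik3r1* went from 1.61 to 1.43 in VEH and from 1.27 to 1.31 in LEM over these steps. *Pik3ap1* went from 1.24 to 1.26 in VEH and stayed at 1.27 in LEM. *Foxo1* went from 0.24 to 0.27 and from 0.22 to 0.21. *Foxo3* rose from 0.54 to 0.71 and from 0.57 to 0.73, and *Pik3cg* from 0.85 to 1.13 and from 0.94 to 1.21. The steps were not computed over all genes.

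**Figure D3:**
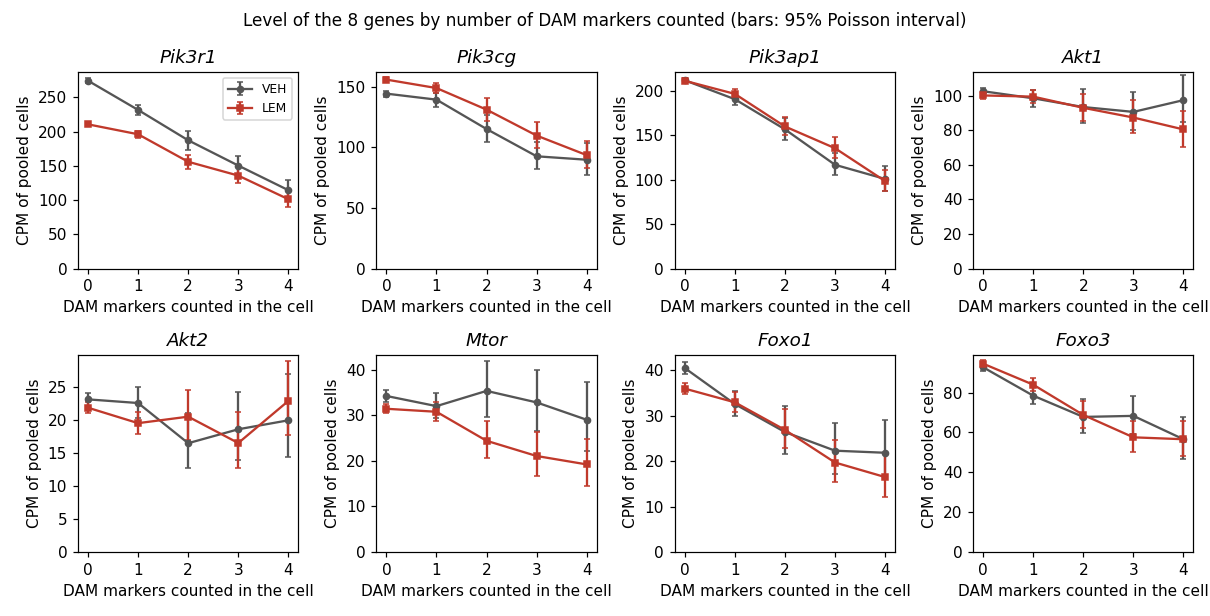
CPM of the 8 genes (y axis, from 0) in cells with 0 to 4 DAM markers counted (x axis), for VEH (grey circles) and LEM (red squares), with 95% Poisson intervals. *Pik3r1*, *Pik3ap1*, *Foxo1*, *Foxo3* and *Pik3cg* decline along the axis in both libraries, *Mtor* declines in LEM, and *Akt2* moves up and down within wide intervals.

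In interferon-gated cells, which hold transcripts induced by type I interferon, *Pik3ap1* was higher and both FoxO genes were lower. *Pik3ap1* was at 352.8 CPM (330.4 to 376.3) in 328 VEH cells and 325.7 CPM (310.4 to 341.6) in 600 LEM cells, against 213.4 and 212.7 CPM in homeostatic cells. The mean log2 ratio was 0.67, and the gene was counted in 83.5% and 86.7% of these cells against 62.2% and 63.7%. In counts per cell it went from 1.24 to 2.82 counts in VEH and from 1.27 to 2.83 in LEM. Per cell, 30.1% of all genes tested were higher by the fold in these deeper cells. *Foxo1* had a mean log2 ratio of −0.62 and *Foxo3* of −0.52, with 26.3 and 24.2 CPM and 64.8 and 65.8 CPM in VEH and LEM. In CPM these are 1 of 8 higher and 2 of 8 lower, against 2.88% and 2.83% of all genes tested, whose median was −0.11. Female cells made up 28.1% of the sexed interferon cells in VEH and 50.6% in LEM, and *Pik3ap1* was higher in both sexes, by 0.59 and 0.76 on the log2 scale. The size of the *Pik3ap1* difference moved with the gate, from 0.33 with at least 2 markers to 1.27 with gates set on cells thinned to 2000 counts, and was 0.49, just under the fold, in cells of at least 8000 counts. With at least 2 markers both FoxO genes were under the fold as well (*Foxo1* −0.47, *Foxo3* −0.44). *Foxo3* was also under it in male cells (−0.42), in cells of at least 8000 counts (−0.44) and less the median of all genes (−0.42). The *Pik3ap1* level was above that of homeostatic cells in each of 4 depth ranges. It was at 550.6 CPM against 276.7 CPM in cells of 2000 to 4000 counts and at 274.6 against 223.4 CPM from 12000 to 20000. Per cell, the counts of *Foxo1* and *Foxo3* were close to those of homeostatic cells, at mean log2 ratios of −0.12 and −0.03. The median over all genes tested was 0.39 on that scale.

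Proliferating cells (136 and 202) had the highest *Akt2* level of the 7 microglial states named by a gate, with 31.3 CPM (22.7 to 42.0) in VEH and 44.3 CPM (35.8 to 54.1) in LEM against 23.1 and 22.0 CPM in homeostatic cells. In VEH the interval of proliferating cells overlapped those of the other states of the 7, and in LEM it lay above them. Choroid plexus barcodes reached 49.1 and 39.7 CPM. The log2 ratio was 1.01 (0.70 to 1.31) in LEM and 0.44 (−0.03 to 0.87) in VEH, so the mean of 0.72 rests on the LEM library, and it was 0.42 in cells of at least 8000 counts. *Foxo1* was lower there, at 22.0 and 21.9 CPM, a mean log2 ratio of −0.82 from 31 and 47 counts, and *Mtor* at 39.1 and 37.3 CPM did not differ from homeostatic cells beyond counting error. These 2 genes past the fold, 1 higher and 1 lower, stand against 16.5% and 17.7% of all genes tested, so neither count was above the background. Proliferating cells held more counts than homeostatic cells, and in counts per cell *Foxo1* had a mean log2 ratio of 0.01.

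The other 3 states had none of the 8 genes past the fold. In intermediate cells the mean log2 ratios ran from −0.26 (*Foxo1*) to −0.03 (*Akt1*), against 0.0133% of all genes lower and 0.345% higher by the fold. In MHC class II cells they ran from −0.46 (*Foxo3*) to −0.02 (*Akt2*), against 7.37% and 3.88%. In chemokine cells they ran from −0.40 (*Foxo1*) to −0.09 (*Akt2*), against 0.757% and 1.46%. All 8 genes lay below their homeostatic CPM on average in each of these states. The median log2 ratio over all genes tested was negative there too, at −0.04, −0.14 and −0.05 in the same order. Over the 8 genes it was −0.14, −0.32 and −0.17.

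**Figure D4:**
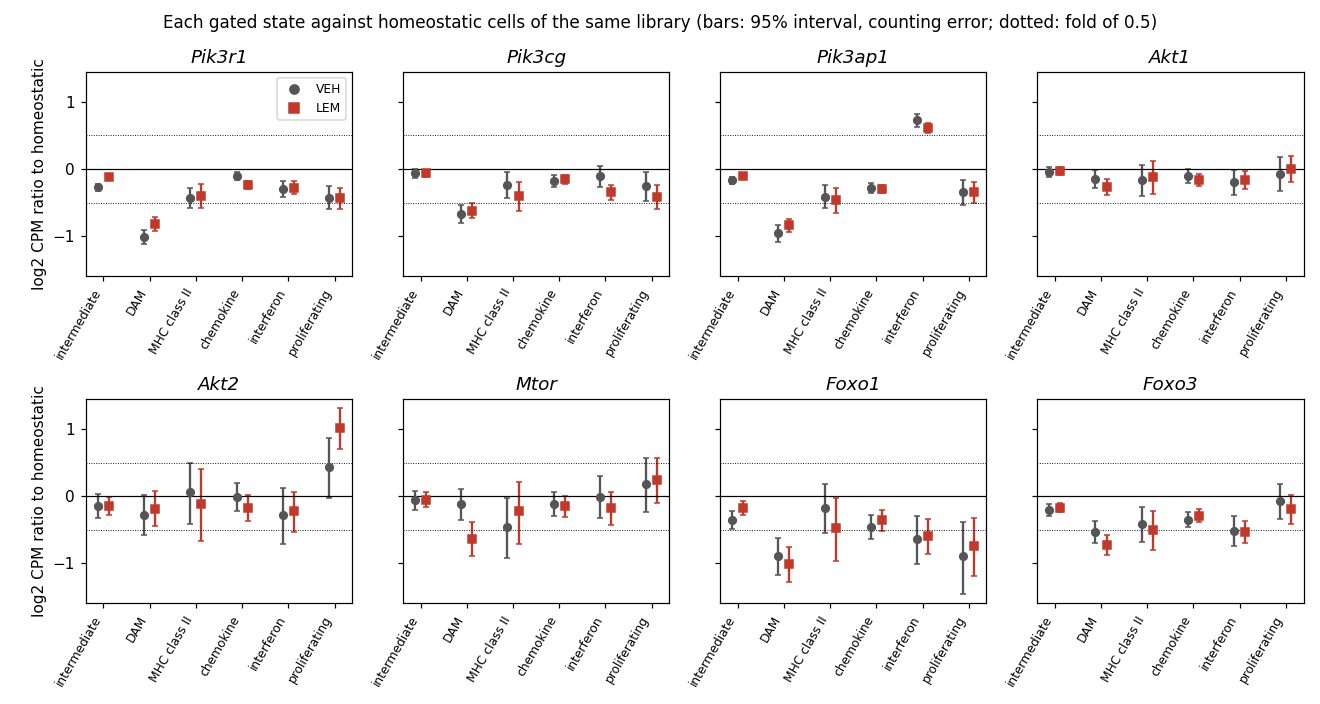
Log2 ratio of each gated state to homeostatic cells of the same library (y axis) for the 8 genes, in VEH (grey circles) and LEM (red squares), with 95% intervals and dotted lines at the fold of 0.5. *Pik3r1*, *Pik3ap1* and *Foxo1* lie near −0.9 in DAM cells, *Pik3ap1* lies above 0.5 in interferon cells, and *Akt2* lies above 0 in proliferating cells with wide intervals.

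Among the 7 microglial states named by a gate, *Pik3r1* was highest in homeostatic cells and lowest in DAM cells in both libraries. In VEH the order was homeostatic, chemokine (254.4 CPM), intermediate (227.0), interferon (222.9), proliferating (203.2), MHC class II (202.4) and DAM, where intermediate and interferon cells, interferon and proliferating cells, and proliferating and MHC class II cells had overlapping intervals. In LEM intermediate cells (195.0 CPM) came before chemokine cells (180.1), followed by interferon (175.2), MHC class II (161.0), proliferating (157.0) and DAM cells, and from chemokine to proliferating each state overlapped the next. Over the same 7 states *Pik3ap1* had the same order in both libraries, with interferon first, then homeostatic, intermediate, chemokine, proliferating, MHC class II and DAM cells. The intervals overlapped from each state to the next between intermediate and MHC class II cells in VEH and between chemokine and MHC class II cells in LEM, so the order there was within counting error. For *Foxo1* homeostatic cells were first of the 7 in both libraries, although the interval of MHC class II cells overlapped theirs in both. DAM and proliferating cells were the lowest pair, with intervals that overlapped each other and those of interferon cells.

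Cells that no gate took (173 in VEH, 257 in LEM) were shallow, with medians of 1628 and 1483 counts, and lacked *P2ry12* counts by the rule. Several of the 8 genes stood high there. *Foxo3* was at 279.9 CPM (227.0 to 341.5) in VEH and 191.4 CPM (152.9 to 236.6) in LEM, and *Foxo1* at 112.6 and 56.3 CPM. *Pik3r1* was at 493.5 and 220.6 CPM and *Pik3ap1* at 360.8 and 279.2 CPM, so in VEH these 4 genes were higher than in any gated state, although the *Pik3ap1* interval overlapped that of interferon cells. The share of all genes highest in these cells was not computed, so this gives no result about the members as a set. In LEM the log2 ratio of *Pik3r1* to homeostatic cells was 0.06 (−0.24 to 0.34), within counting error. The LEM interval of *Foxo1*, −0.01 to 1.19, was not clear of counting error either. *Malat1* was at 12702 and 9393 CPM in these cells against 8972 and 8710 CPM in homeostatic cells, and its part in these values was not tested. Shallow homeostatic cells, of 2000 to 4000 counts, were also higher than those of 4000 to 8000 counts for several genes, with *Foxo3* at 137.4 against 88.9 CPM and *Foxo1* at 52.1 against 37.8 CPM. The same held for *Pik3r1* (292.6 against 233.5 CPM), *Pik3ap1* (276.7 against 205.2 CPM), *Mtor* (44.9 against 31.7 CPM) and, by less, *Pik3cg* (163.4 against 148.9 CPM). *Akt1* (104.8 against 102.3 CPM) and *Akt2* (24.1 against 21.8 CPM) had overlapping intervals.

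Across 21 pools of state, library and sex with at least 100 cells each, the genes whose log2(CPM + 1) most resembled a member among 7412 genes were *Nfkb1* for *Pik3r1* (Pearson r 0.95), *Prkab1* for *Pik3cg* (0.97) and *Capza2* for *Pik3ap1* (0.98). They were *Elmod2* for *Akt1* (0.88), *Stard7* for *Akt2* (0.88), *Tnfaip8* for *Mtor* (0.88), *Eci2* for *Foxo1* (0.92) and *Cnnm2* for *Foxo3* (0.95). Among the members the highest values were between *Foxo1* and *Pik3cg* (0.85), *Foxo3* and *Pik3cg* (0.81), *Pik3cg* and *Pik3r1* (0.81) and *Foxo1* and *Pik3r1* (0.80). *Akt2* resembled none of the other 7, at −0.11 to 0.30. These values describe pools that share 2 libraries and differ in depth and composition.

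The pathway was widened by a list of 62 other genes grouped by role, 60 of them counted in at least 1% of cells. Between libraries 3 were lower and 1 was higher by the fold, each with the same direction in both sexes, beside 4.37% lower and 6.16% higher over all genes tested, so the lower count was near the background. The median log2 ratio of the list was −0.02. *Klf2*, a transcription factor gene that FoxO1 is known to activate in lymphocytes, was at 454.5 CPM and 257.2 CPM. Its ratio was −0.82, and the sexes gave −0.52 (female) and −0.94 (male). The female to male log2 ratio of *Klf2* was −0.45 within VEH and −0.03 within LEM. *Cdkn1b*, a cell cycle inhibitor and another known FoxO target, had a ratio of −0.26. It was −0.45 in female cells and −0.11, under the fold, in male cells. The other 11 listed targets stayed within the fold, for a median of −0.05 over all 13. *Hcst*, which encodes the PI3K-recruiting adaptor DAP10, had a ratio of −0.29 at 20.8 and 17.0 CPM, and *Pik3c2b*, a class II PI3K, one of 0.26 at 4.91 and 5.88 CPM. For *Pik3c2b* the ratio was 0.40 in female cells, and in male cells 0.08 (−0.15 to 0.30), within counting error. None of the 3 other class I catalytic subunits, 7 regulators and adaptors, 6 phosphatases, 10 mTOR complex and TSC genes or 6 mTORC1 substrates that were counted passed the fold.

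In CPM, 23 of the 48 list genes counted in at least 10% of cells were lower in DAM cells and 3 were higher by the fold, beside 26.9% and 6.59% of all genes tested, so the higher count was near the background. The lower genes include *P2ry12* (−0.95), whose ratio is partly set by the gate, since homeostatic cells had to hold a *P2ry12* count. *Cx3cr1* (−0.82), itself known as a marker of homeostatic microglia, was among them too. The median of the 48 genes was −0.47 against −0.30 over all genes tested. In counts per cell the direction turned, with 0 of the 48 lower and 24 higher, beside 1.01% and 69.7% of all genes tested, and a median of 0.50 against 0.67. Less the median of all genes, 7 were lower and 4 higher in CPM, beside 8.90% and 13.5%. Among the 23 lower in CPM, before the median was taken off, was *Inpp5d*, which encodes the lipid phosphatase SHIP1. It was at 583.0 CPM in DAM cells of VEH and 621.1 CPM in those of LEM (mean log2 ratio −0.63). The catalytic subunit gene *Pik3cd* (−0.75) was lower as well. So was *Pik3r5*, at 55.5 and 57.5 CPM, whose product is a regulatory partner of the subunit that *Pik3cg* encodes. The 3 genes higher in CPM were the receptor gene *Trem2* (0.97) and the adaptor genes *Tyrobp* (1.62) and *Hcst* (1.64), of which *Trem2* and *Tyrobp* are themselves known for their role in the DAM state.

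**Figure D5:**
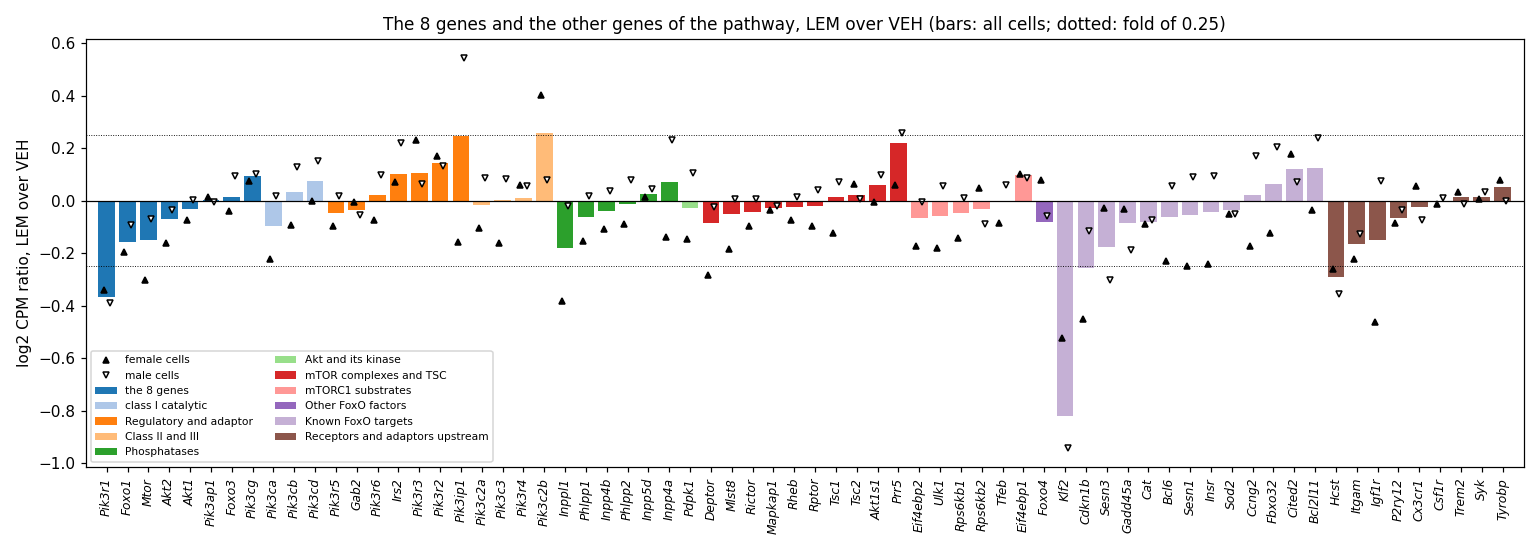
Log2 ratio of LEM to VEH in CPM (y axis) for the 8 genes and the 60 other pathway genes counted in at least 1% of cells, coloured by role, with all cells as bars, female cells as filled triangles, male cells as open triangles and dotted lines at 0.25. *Klf2* and *Pik3r1* are the bars farthest below 0 with both sexes on the same side.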

How the data were processed

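Microglia of 5 VEH-treated and 5 LEM-treated PSAPP mice were pooled by treatment, sorted and profiled with 10x Genomics 5′ chemistry. The authors deposited 1 table of raw counts per gene and cell, made with Cell Ranger 8.0.0 on mm10 according to the submitters' processing notes. The study's methods name SoupX correction of ambient RNA and removal of cells below 500 genes, above 20000 counts or above 2.5% of mitochondrial counts, and all 42766 deposited cells met these filters. All values were whole numbers, and whether the ambient correction is in them is not given in the sources used here. The number of cells in the study's text differs from that in the table, and the reason is not given there.

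Counts were summed over the cells of a pool and divided by the pool's total (CPM), and pools were compared as log2 ratios. Intervals were exact (Poisson for levels, Clopper-Pearson for shares, conditional binomial for ratios, at 95%) and cover counting error only. Ratios between states were taken within a library and averaged over the 2 libraries. Folds of 0.25 (libraries) and 0.5 (states) on the log2 scale served as descriptions, and backgrounds added 0.5 counts per gene and pool. Gates took, in order, choroid plexus, border-associated macrophage (BAM), proliferating, interferon, DAM, MHC class II, chemokine, intermediate and homeostatic cells. Of the fixed DAM markers 5 were used here, and some genes of the marker and pathway lists are not reported here. Doublets were called with Scrublet (scanpy 1.11.5), which marked 9.82% of VEH and 9.85% of LEM cells. They were kept in the main values. Cells with fewer than 2000 counts (1305 VEH, 1215 LEM) were left out of thinned shares. The ratio and interval code was tested on simulated counts. Named genes were the members, the pathway list and, for each member, the genes of highest correlation over pools. The members, gates and lists were chosen with earlier results of these data known. Alternatives were other scalings, gates, depths, sexes and cell filters. Python 3.11.15, numpy 2.4.6 and scipy 1.17.1 were used.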

Additional observations from a re-analysis of the deposited data

Results flagged for a closer look

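In the pathway list, 6 genes had LEM to VEH ratios of opposite sign in female and male cells, with both counting intervals off 0 and a gap of at least 0.25 on the log2 scale. These were *Igf1r*, the receptor for insulin-like growth factor (−0.46 in female, 0.08 in male cells), *Insr*, the insulin receptor (−0.24 and 0.09), *Sesn1* (−0.25 and 0.09), *Ccng2* (−0.17 and 0.17), *Inpp4a* (−0.14 and 0.23) and *Pdpk1*, the kinase that activates Akt (−0.14 and 0.11). In all 6 the female ratio was the lower one. They are 6 of 60 list genes. By the same rule 3.99% of 11910 genes had a negative female and a positive male ratio, and 1.91% the reverse. The difference between the sexes was not tested, since each library is 1 pool and the number of mice of each sex in it is not given in the sources used here. None of the 8 members did so.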

How the results depend on the processing

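No paired analysis was possible because each treatment has 1 library, and no replicate could be left out. Between libraries, the *Pik3r1* log2 ratio stayed between −0.39 and −0.34 in 11 alternatives (scaling, doublets, gates, depth, sex, weights), and 1 member passed the fold in each of them except female cells only, where 2 did (*Mtor* as well). Its share of cells with a count differed by −3.83 percentage points (LEM less VEH), and the difference was −6.43 for at least 2 counts and −5.48 after thinning. The background share of genes past the fold rose from 4.37% to 20.5% lower and from 6.16% to 22.0% higher without a filter on detection, and was 2.10% and 2.29% among genes in at least 10% of cells. In DAM cells 4 to 7 members were lower under 9 other gates, doublet, library and sex settings and 5 in cells of at least 8000 counts. With mean counts per cell, a scale chosen after seeing the data, 0 members were lower and 3 higher, and all 8 log2 ratios turned positive. The 5 that had been past the fold were then *Pik3r1* (0.052), *Pik3cg* (0.32), *Pik3ap1* (0.068), *Foxo1* (0.015) and *Foxo3* (0.34). In proliferating cells *Foxo1*, the 1 lower member, turned positive (0.013), as did 5 members under the fold. Less the median of all genes, 3 were lower in DAM cells. Of the 48 pathway list genes, 23 lower and 3 higher in DAM cells became 0 and 24 per cell, and 7 and 4 less the median. That setting and the minimums of 4000 and 8000 counts were also chosen after seeing the data. In interferon cells the 2 lower members became 0 with at least 2 markers or per cell, and 1 in male cells, in cells of at least 8000 counts, and less the median. The 1 higher member became 0 with at least 2 markers and in cells of at least 8000 counts, and 2 with gates after thinning. In proliferating cells the 1 lower member became 0 in female cells and per cell, and the 1 higher became 0 in VEH alone and in cells of at least 8000 counts, and 4 per cell, where 73.6% of all genes were higher. The causes were not tested beyond what each setting changes. *Akt2*, *Mtor* and *Foxo1* have under 200 counts in each DAM, interferon or proliferating pool, which limits their ratios there.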
